A study of Mus musculus with 10 samples.

Results

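The 40 genes described here encode proteins of autophagy (19 genes) and of the lysosome (21 genes). They were listed by name and known function, with earlier results of these data known, and no measured value enters the list of genes. The probe set of each gene was its brightest by the mean over the 10 arrays, so measured values did choose which probe set was tested. Of the 40, 39 had a probe set naming that gene alone, and all 39 passed the filter on dim genes (18 for autophagy, 21 for the lysosome), out of 13450 genes tested and 18193 measured. Optn had no such probe set, so its signal was not analysed and only its promoter window was read.

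Transcripts were measured in whole mouse lenses on Affymetrix 430 2 arrays, 1 array per sample. The groups were postnatal day 56 (PN56) lenses labelled Klf4CN, a conditional null of the transcription factor gene Klf4 (2 arrays), PN56 wild-type (WT) lenses (2 arrays), embryonic day 16.5 (E16.5) lenses labelled Klf4CN (3 arrays) and E16.5 WT lenses (3 arrays). Lenses of 5 embryos went into every E16.5 sample and lenses of 3 young adults into every PN56 sample, with samples prepared independently. The sources used here do not give the Cre driver, the deleted part of Klf4, the strain or the sexes. The number of arrays limits the precision of every comparison.

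Autophagy encloses cytoplasm in a double membrane and delivers it to the lysosome, where acid hydrolases digest it. A kinase and a lipid kinase complex start the membrane, a ubiquitin-like conjugation system attaches Atg8 family proteins to it, and cargo receptors tether the material to be enclosed. In the lens, epithelial cells keep dividing and become fibre cells, which lose their nuclei and other organelles as they mature.

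Signals were linear intensities that had been scaled on every array to the same trimmed mean of 500. Median signals ran from 91.0 to 108.6 at PN56 and from 63.0 to 76.9 at E16.5. Across the 13450 genes, correlations between arrays of 1 group ran from 0.952 to 0.981. Klf4 itself had 732 and 702 units in PN56 lenses labelled Klf4CN, against 157 and 214 units in PN56 WT lenses. Its log2 difference was 1.88 ± 0.34 (SE, limma adjusted p = 0.0041), so the signal was higher, not lower, in lenses labelled Klf4CN. At E16.5 it averaged 1079 ± 278 units in lenses labelled Klf4CN and 739 ± 295 units in WT lenses (SD, n = 3 each), which did not pass the test. The dimmer Klf4 probe set gave 1.04 at PN56, which did not pass. The labels do not place the probe sets relative to the deletion, and one outside it would not check the labels, so groups are named as lenses labelled Klf4CN. Lens markers had a summed signal of 629622 to 639261 in PN56 lenses labelled Klf4CN and of 830978 to 941659 in PN56 WT lenses, with none of 14 at 0 and 10 of them lower in lenses labelled Klf4CN. The 3′ to 5′ signal ratio of Actb ran from 1.45 to 1.6 in PN56 lenses labelled Klf4CN and from 1.79 to 1.88 in PN56 WT lenses. The 18S 5′ control probe set read 5700.1 to 11005.1 units in PN56 lenses labelled Klf4CN and 527.5 to 2870.0 units in PN56 WT lenses, and 20896.7 to 22775.7 units in E16.5 lenses labelled Klf4CN and 1155.3 to 2412.8 units in E16.5 WT lenses. The part of these in the results was not tested.

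Start regions of the genes were read for the letters that the transcription factors named here are known to bind. RefSeq promoter windows (GRCm38.p6, 250 bases before to 50 bases after each start) were found for 32 of the 40 genes and searched on both strands. CACGTG, the core bound by Tfeb and Tfe3, was in the windows of 12 of the 32 genes (3 of 15 for autophagy and 9 of 17 for the lysosome), against 8.09% of all 27025 genes with windows (7.15% of 32851 windows). TCACGTG, which contains that core, was in 9 of the 32, against 4.29% of all genes. CACCC, the box bound by Kruppel-like factors such as Klf4, was in 18 of the 32, against 59.8% of all genes, so its share was near that of all genes. A match is a description of the letters and not a bound site.

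Windows of 5 genes are shown as examples. Signals of Sqstm1 (chr11:50210771-50211070, minus strand) and Map1lc3b (chr8:121590188-121590487, plus strand) differed with the Klf4 label at PN56. Those of Lamp1 (chr8:13158911-13159210, plus strand), Atg3 (chr16:45158579-45158878, plus strand) and Ctsl (chr13:64370471-64370770, minus strand) differed with age in both genotypes. Each is written 5′ to 3′ on the strand of the gene, with CACGTG and with CACCC or its complement GGGTG in capitals. Lamp1 holds 4 copies of CACGTG, Atg3 holds 2 and Ctsl 1, while Sqstm1 and Map1lc3b hold 0. Among genes not shown that differed with age in both genotypes by their brightest probe sets, Lamp2, Gabarapl1 and Gusb hold 0. Mcoln1 and Ctsa hold 2, so the 5 windows do not stand for the other genes. All 5 windows hold a CACCC box, 2 in Ctsl and 1 in each of the others.
Sqstm1: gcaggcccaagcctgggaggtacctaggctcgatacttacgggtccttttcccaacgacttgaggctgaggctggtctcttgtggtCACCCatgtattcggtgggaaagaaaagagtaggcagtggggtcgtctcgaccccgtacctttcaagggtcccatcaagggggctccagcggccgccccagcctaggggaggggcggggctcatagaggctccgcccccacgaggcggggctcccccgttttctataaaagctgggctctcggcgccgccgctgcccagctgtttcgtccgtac
Map1lc3b: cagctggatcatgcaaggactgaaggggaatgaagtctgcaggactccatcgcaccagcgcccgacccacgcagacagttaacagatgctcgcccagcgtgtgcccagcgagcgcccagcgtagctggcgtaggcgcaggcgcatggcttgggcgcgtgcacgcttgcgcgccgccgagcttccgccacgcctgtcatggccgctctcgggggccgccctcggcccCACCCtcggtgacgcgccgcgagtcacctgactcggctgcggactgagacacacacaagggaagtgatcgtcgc
Lamp1: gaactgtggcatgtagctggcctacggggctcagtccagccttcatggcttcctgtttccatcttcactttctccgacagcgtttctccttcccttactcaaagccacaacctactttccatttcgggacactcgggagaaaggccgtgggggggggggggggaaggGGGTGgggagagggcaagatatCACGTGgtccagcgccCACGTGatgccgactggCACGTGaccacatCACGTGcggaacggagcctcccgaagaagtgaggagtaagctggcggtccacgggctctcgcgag
Atg3: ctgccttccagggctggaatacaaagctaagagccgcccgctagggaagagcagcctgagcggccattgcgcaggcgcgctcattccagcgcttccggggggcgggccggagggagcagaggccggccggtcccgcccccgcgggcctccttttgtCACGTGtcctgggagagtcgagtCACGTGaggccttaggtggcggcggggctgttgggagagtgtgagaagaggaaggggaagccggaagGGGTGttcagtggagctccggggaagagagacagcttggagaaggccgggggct
Ctsl: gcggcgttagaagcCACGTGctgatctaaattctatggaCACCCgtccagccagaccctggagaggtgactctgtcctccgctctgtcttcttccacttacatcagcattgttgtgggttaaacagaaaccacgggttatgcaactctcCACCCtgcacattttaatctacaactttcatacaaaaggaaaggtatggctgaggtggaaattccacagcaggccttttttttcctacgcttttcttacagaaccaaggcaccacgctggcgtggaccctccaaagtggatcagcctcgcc

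The first comparison asked which of these genes differed with the Klf4 label in the adult lens. At PN56, 6 of the 39 genes passed the test (15.4%), against 13.0% of all genes tested, so their share was near that of all genes. In lenses labelled Klf4CN 5 were higher (6.04% of all genes) and 1 lower (6.97% of all genes). With every array centred on its median this split of the 39 genes was the same, but that of all genes was 900 higher and 481 lower, against 812 higher and 938 lower. They were the cargo receptor Sqstm1, the Atg8 family genes Map1lc3b, Map1lc3a and Gabarapl2 and the cathepsin gene Ctsb, all higher, and the transcription factor gene Tfeb, which was lower. Autophagy genes made up 5 of the 6 (5 of 18 tested), and the lysosome had 1 of 21. The median log2 difference was 0.15 over the 39 genes and -0.06 over all genes tested. Log2 differences are those of log2(signal + 16), which understates the change of dim genes, and a gene passed at a Benjamini-Hochberg adjusted p under 0.05 in a limma fit of all 13450 genes.

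**Figure D1:**
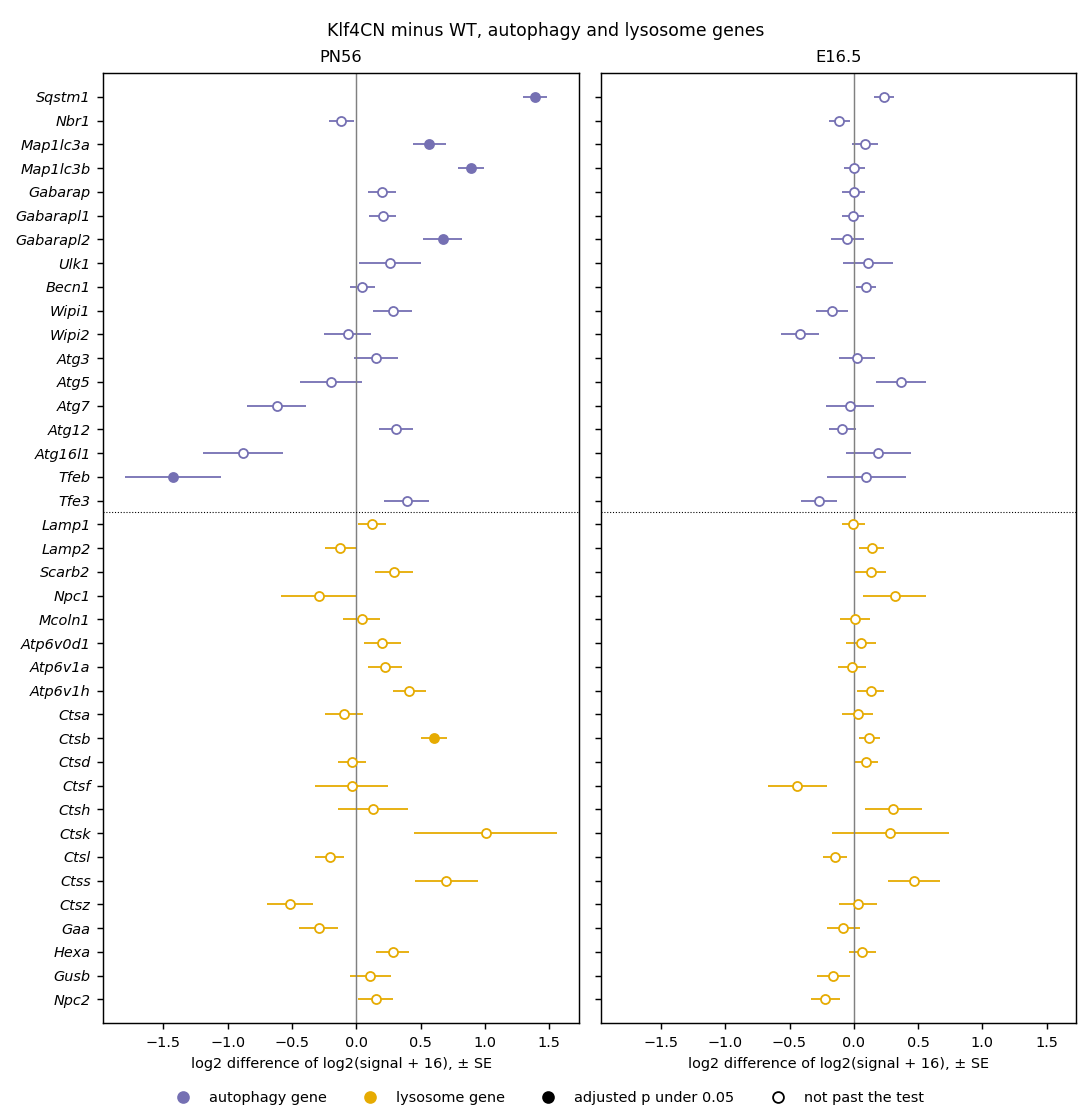
Log2 difference of lenses labelled Klf4CN minus WT lenses for each of the 39 genes (rows), at PN56 (left) and at E16.5 (right), on the log2(signal + 16) scale. Points are limma estimates with bars of ± 1 SE, and filled points had an adjusted p under 0.05. At PN56 6 points are filled, from -1.43 for Tfeb to 1.39 for Sqstm1, and at E16.5 0 are.

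Sqstm1 (probe set 1450957_a_at; gene at chr11:50200152-50210820, GRCm38.p6) encodes the receptor that binds ubiquitinated cargo and the Atg8 family proteins on the forming membrane. It had 20157 and 20912 units in PN56 lenses labelled Klf4CN, against 7644 and 7994 units in PN56 WT lenses. Both arrays labelled Klf4CN stood above both WT arrays with a wide gap. The log2 difference was 1.39 ± 0.093 (SE, limma adjusted p = 8.78e-06), a fold of 2.62. Nbr1, the other receptor measured, which also binds ubiquitin, averaged 5117 ± 274 units in lenses labelled Klf4CN and 5554 ± 103 units in WT lenses (SD, n = 2 each). Its log2 difference of -0.12 did not pass (limma adjusted p = 0.464).

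Within the Atg8 family, whose proteins coat the forming membrane and hold receptors to it, 3 of 5 genes were higher. Map1lc3b (probe set 1415930_a_at; gene at chr8:121590438-121598760) had 13589 and 14015 units in PN56 lenses labelled Klf4CN, against 7567 and 7307 units in PN56 WT lenses. Its groups did not overlap, and the log2 difference was 0.89 ± 0.10 (SE, limma adjusted p = 0.00027). The other probe sets of Map1lc3b past the filter did not show this difference: they gave log2 differences of -0.18 and 0.04, neither past the test. The one that gave -0.18 was the brighter in E16.5 lenses labelled Klf4CN (5761 ± 893 units, against 4910 ± 244 units, SD, n = 3). The probe set used was thus the brightest over all arrays but not in every group. Map1lc3a (probe set 1447883_x_at; gene at chr2:155276364-155278073), which encodes the related LC3A, had 2777 and 2330 units in lenses labelled Klf4CN, against 1756 and 1666 units in WT lenses, without overlap. Its log2 difference was 0.57 ± 0.13 (SE, limma adjusted p = 0.0119), and the dimmer probe set of the gene gave 0.94 (adjusted p = 0.0042 over all probe sets in limma). Gabarapl2 (probe set 1423187_at; gene at chr8:111940703-111952915), of the GABARAP branch of the family, had 5407 and 6739 units in lenses labelled Klf4CN, against 3411 and 4200 units in WT lenses. The groups did not overlap, and the log2 difference was 0.67 ± 0.15 (SE, limma adjusted p = 0.0143). Gabarap and Gabarapl1, also of that branch, had log2 differences of 0.20 and 0.20, with limma adjusted p of 0.254 and 0.223.

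Map1lc3a no longer passed without PN56 Klf4CN replicate 1 (log2 difference 0.44, limma adjusted p = 0.0569), nor in a fit of the PN56 arrays alone (adjusted p = 0.065). Gabarapl2 no longer passed without PN56 Klf4CN replicate 2 (0.51, limma adjusted p = 0.105), without PN56 WT replicate 1 (0.52, limma adjusted p = 0.104), or in limma with no intensity trend (adjusted p = 0.0643). With the probe sets of each gene averaged, Sqstm1 (1.11, limma adjusted p = 0.095) and Map1lc3b (0.30, limma adjusted p = 0.201) did not pass. Gabarapl2 (0.53, limma adjusted p = 0.0585) and Ctsb (0.14, limma adjusted p = 0.684) did not pass either. The averages took in probe sets that failed the filter on dim genes, and the only other probe set of Sqstm1 was of that kind.

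**Figure D2:**
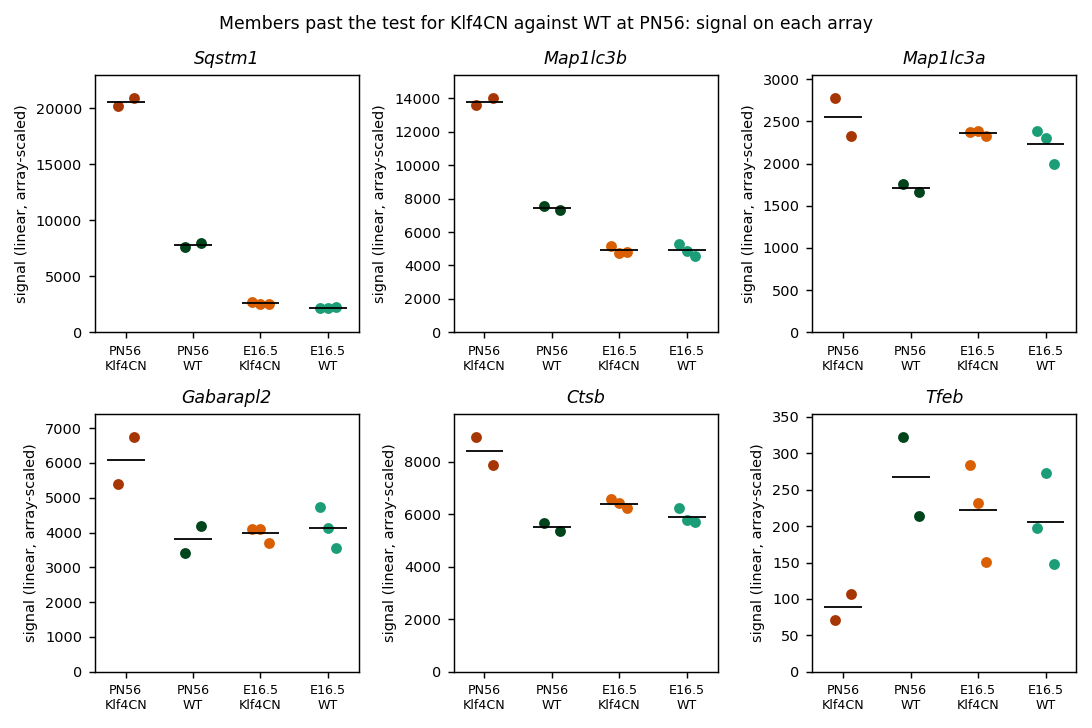
Signal (linear, scaled per array) of the 6 genes that passed the test at PN56, 1 panel a gene, each axis starting at 0; points are arrays and bars group means. In PN56 lenses labelled Klf4CN, Sqstm1 sits at 20157 and 20912 units, above 7644 and 7994 units in PN56 WT lenses.

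None of the 4 genes that start the membrane passed. Ulk1, the kinase that receives nutrient signals, had a log2 difference of 0.26, Becn1, a subunit of the lipid kinase complex, 0.05, and the lipid-binding Wipi1 and Wipi2 had 0.28 and -0.07 (limma adjusted p from 0.248 to 0.848). The probe sets of Becn1 disagreed, with 0.42 (adjusted p = 0.0243 over all probe sets in limma) by the next brightest and -1.44 (0.0349 by the same test) by the dimmest.

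The 5 genes of the conjugation machinery did not pass either. Atg7 encodes the activating enzyme of the system, and had 266 and 426 units in lenses labelled Klf4CN, against 604 and 458 units in WT lenses (log2 difference -0.62, limma adjusted p = 0.0955). Atg16l1, whose protein directs the conjugation to the membrane, had 145 and 99.7 units in lenses labelled Klf4CN, against 305 and 181 units in WT lenses (-0.88, limma adjusted p = 0.0814). Both were lower on each array labelled Klf4CN than on either WT array, but did not pass. Atg16l1 passed without PN56 WT replicate 2 (-1.24, limma adjusted p = 0.0345), and Atg7 passed without PN56 Klf4CN replicate 2 (-0.94, limma adjusted p = 0.0313). Atg3 (0.15), Atg5 (-0.20) and Atg12 (0.31) had limma adjusted p from 0.137 to 0.64.

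The 2 transcription factors, which bind related DNA elements in lysosomal gene promoters, had differences of opposite sign. Tfeb (probe set 1422566_at; gene at chr17:47737037-47792416) had 71.3 and 107 units in lenses labelled Klf4CN, against 322 and 214 units in WT lenses. The groups did not overlap, at signals low on these arrays, and the log2 difference was -1.43 ± 0.37 (SE, limma adjusted p = 0.0263), 2.69-fold lower. Tfeb no longer passed without PN56 WT replicate 1 (-1.15, limma adjusted p = 0.138), without PN56 Klf4CN replicate 1 (-1.18, limma adjusted p = 0.106), or in a fit of the PN56 arrays alone (adjusted p = 0.0861). Tfe3 averaged 387 ± 31.7 units in lenses labelled Klf4CN and 291 ± 4.67 units in WT lenses (SD, n = 2 each). Its log2 difference of 0.39 did not pass (limma adjusted p = 0.163).

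Among lysosomal genes, Ctsb (probe set 1417490_at; gene at chr14:63122462-63145923), a cysteine protease of the lumen, was the 1 that passed. It had 8942 and 7896 units in PN56 lenses labelled Klf4CN, against 5683 and 5363 units in PN56 WT lenses, a log2 difference of 0.60 ± 0.10 (SE, limma adjusted p = 0.0025), and its groups did not overlap. The next brightest of its other probe sets gave 0.70 (adjusted p = 0.0123 over all probe sets in limma), and the remaining 2 past the filter gave 0.19 and 0.42, neither past the test. Of the other 8 cathepsin genes, Ctss, a protease best known from antigen-presenting cells, had 1582 and 933 units in lenses labelled Klf4CN, against 786 and 700 units in WT lenses (0.70, limma adjusted p = 0.082). Ctsz, a carboxypeptidase, had 10735 and 8783 units in lenses labelled Klf4CN, against 15203 and 12720 units in WT lenses (-0.52, limma adjusted p = 0.0805). Ctsk, known from bone resorption and the dimmest of the 39, had 202 and 48.2 units in lenses labelled Klf4CN, against 28.4 and 62.2 units in WT lenses, which overlapped. Without PN56 Klf4CN replicate 2, Ctss (1.08, limma adjusted p = 0.0254) and Ctsk (1.89, limma adjusted p = 0.0488) passed, and without E16.5 Klf4CN replicate 3 Ctsz passed (-0.52, limma adjusted p = 0.0263). The aspartic protease gene Ctsd (-0.03), Ctsa (-0.10), Ctsf (-0.04), Ctsh (0.13) and Ctsl (-0.21) had limma adjusted p from 0.26 to 0.946.

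Macrophages are rich in lysosomes, so their markers were read beside these genes. In the PN56 comparison 2 of 16 tested macrophage markers were higher (6.04% of all genes), Cd68 and Tyrobp, and 0 lower (6.97% of all genes). Cd68 had 269 and 230 units in lenses labelled Klf4CN, against 8.1 and 48.9 units in WT lenses, and Tyrobp had 166 and 126 units in lenses labelled Klf4CN, against 5.7 and 25.1 units in WT lenses. The WT signals lay near or under the filter signal of about 45.0, so no fold is given. The summed signal of the 17 markers ran from 2833 to 4836 units in PN56 lenses labelled Klf4CN and from 2956 to 3285 units in PN56 WT lenses, with none at 0. Csf1r, a defining marker, averaged 769 ± 168 units in lenses labelled Klf4CN and 856 ± 32.2 units in WT lenses (SD, n = 2 each). The sum of 8 pigment cell markers ran from 3254 to 3513 units in lenses labelled Klf4CN and from 6732 to 8560 units in WT lenses, and that of 12 retina markers from 8927 to 15363 units in lenses labelled Klf4CN and from 8081 to 8135 units in WT lenses, with none at 0 and 0 past the test in limma. The part of these cells in the results was not tested, and in whole lenses more or fewer cells of a type cannot be told apart from more or less RNA per cell.

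By their brightest probe sets, the other lysosomal genes did not pass at PN56. Among the membrane proteins, the main glycoproteins of the lysosomal membrane had log2 differences of 0.12 (Lamp1) and -0.12 (Lamp2), the receptor Scarb2 0.29, the cholesterol exporter Npc1 -0.29 and the calcium channel Mcoln1 0.04. The 3 subunits of the proton pump that acidifies the lumen were 0.20 (Atp6v0d1), 0.22 (Atp6v1a) and 0.41 (Atp6v1h). Atp6v1h had 1333 and 1307 units in lenses labelled Klf4CN, against 989 and 986 units in WT lenses (limma adjusted p = 0.0564), without overlap and close to the threshold. It passed after quantile normalization (adjusted p = 0.0383 in limma). Of the glycan-digesting enzymes, Gaa was at -0.29, Hexa at 0.28 and Gusb at 0.11, and the cholesterol carrier Npc2 was at 0.15. Other probe sets of Npc2 were higher in lenses labelled Klf4CN. The next brightest was at 0.50 (adjusted p = 0.0058 over all probe sets in limma) and a dimmer one at 1.49 (0.0064 by the same test).

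At E16.5 the same question was asked of the embryonic lens. Of the 39 genes 0 passed in limma, against 0.00743% of all genes tested (1 of 13450, with 606 at an unadjusted p under 0.05). The median log2 difference was 0.03, and the extremes were -0.44 for Ctsf and 0.47 for Ctss. Sqstm1 had 2706, 2570 and 2557 units in lenses labelled Klf4CN, against 2202, 2170 and 2271 units in WT lenses. All 3 arrays labelled Klf4CN stood above the WT arrays, with a log2 difference of 0.24 ± 0.076 (SE, limma adjusted p = 0.94). Map1lc3b had 5191, 4757 and 4781 units in lenses labelled Klf4CN, against 5276, 4854 and 4568 units in WT lenses, which overlapped. Ctsb averaged 6411 ± 171 units in lenses labelled Klf4CN and 5903 ± 295 units in WT lenses, and Tfeb averaged 222 ± 67.4 units in lenses labelled Klf4CN and 206 ± 63.1 units in WT lenses (SD, n = 3 each).

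The difference between the effect of the label at PN56 and at E16.5 was tested as an interaction. It passed for 2 of the 39 genes (5.13%), against 4.79% of all genes tested, a share near that of all genes. The difference was above 0 in both (2.69% of all genes) and below 0 in none of the genes that passed (2.1% of all genes). With every array centred on its median, 471 of all genes passed above 0 and 109 passed below, against 362 and 282 without centring. Of the 39 genes, 3 then passed above 0. Without centring, Sqstm1 passed with a difference of effects of 1.16 ± 0.12 on the log2 scale (SE, limma adjusted p = 0.000486). Map1lc3b passed with 0.89 ± 0.13 (SE, limma adjusted p = 0.004). Ctsb (0.48, limma adjusted p = 0.0531), Gabarapl2 (0.72, 0.0621 by limma) and Tfeb (-1.52, 0.0964 by limma) were next. Ctsb passed without PN56 Klf4CN replicate 2 (0.57, limma adjusted p = 0.045). Gabarapl2 passed without E16.5 WT replicate 3 (0.82, limma adjusted p = 0.0449), without PN56 Klf4CN replicate 1 (0.88, limma adjusted p = 0.0324) and without PN56 WT replicate 2 (0.87, limma adjusted p = 0.0464). For the remaining genes the difference between ages did not pass by the brightest probe set, which does not show that the effects were alike. It passed for dimmer probe sets of Map1lc3a (0.97, adjusted p = 0.03 over all probe sets in limma) and Npc2 (0.64, 0.0175 by the same test).

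The comparison of PN56 with E16.5 asked how the genes differ between the adult and the embryonic lens of each genotype. In lenses labelled Klf4CN 29 of the 39 genes passed (74.4%), against 52.1% of all genes tested; 14 were higher at PN56 (21.6% of all genes) and 15 lower (30.5% of all genes). In WT lenses 26 passed (66.7%), against 55.6% of all genes tested, with 11 higher (25.0% of all genes) and 15 lower (30.7% of all genes). With each gene's probe sets averaged, 19 of the 39 passed in lenses labelled Klf4CN and 16 in WT lenses. The share of all genes under that setting is not given here. Ctsl, Atg3, Sqstm1, Gabarapl1, Lamp2 and Ctsh were higher at PN56 in both genotypes, and Gusb and Tfe3 were lower in both. Wipi1, Becn1 and Mcoln1 were lower in both by their brightest probe sets, and their other probe sets did not all give that direction. The PN56 arrays also differed from the E16.5 arrays in a spiked-in control transcript (dap, 6.5 to 14.5 units at PN56 and 3124.9 to 4159.2 units at E16.5), and age and preparation cannot be told apart.

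Both age comparisons use arrays that also enter the comparisons of genotype, but share no array with each other. Of the 14 genes higher at PN56 in lenses labelled Klf4CN, 9 (64.3%) were among the 11 higher in WT lenses, of which they made 81.8%. Of the 15 lower in lenses labelled Klf4CN, 12 (80.0%) were among the 15 lower in WT lenses (80.0%), and 0 genes passed in opposite directions. Over all genes tested, 78.9% of those higher in lenses labelled Klf4CN were also higher in WT lenses (68.3% of the WT list). Of those lower, 77.1% were also lower there (76.6% of the WT list). The shares of the 39 genes were near these for the lower genes. For the higher genes the share was below that of all genes in the Klf4CN list and above it in the WT list, on lists of 14 and 11 genes. The balance of directions depended on the scaling. With every array centred on its median, the median of all genes moved by -0.17 in lenses labelled Klf4CN and by -0.33 in WT lenses. The calls then split into 10 higher and 17 lower in lenses labelled Klf4CN, and into 6 higher and 20 lower in WT lenses. Genes that no longer passed as higher were Ctsb, Ctsf, Hexa and Npc2 in lenses labelled Klf4CN and Map1lc3b, Gabarap, Scarb2, Npc1 and Ctsz in WT lenses.

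**Figure D3:**
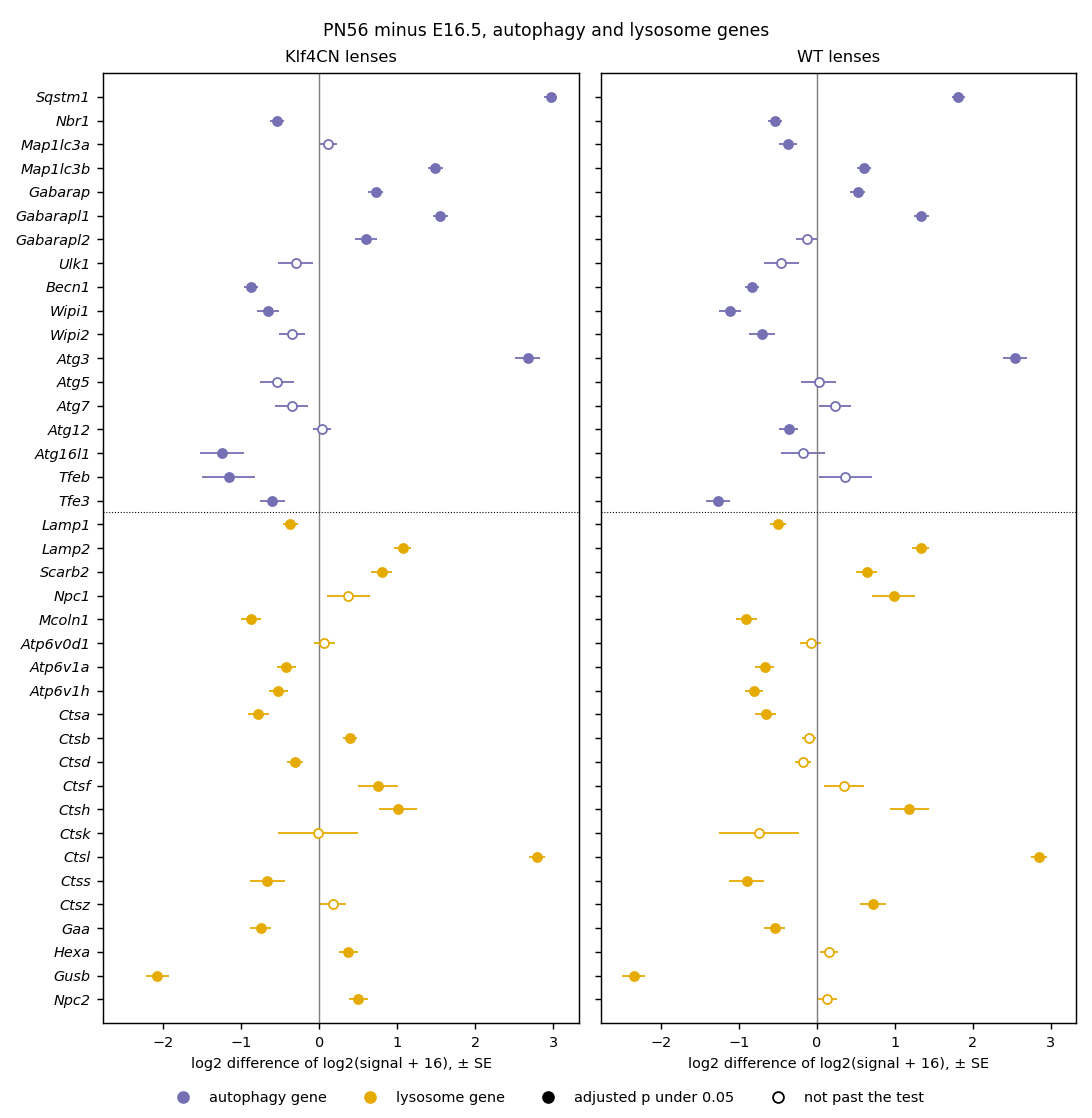
Log2 difference of PN56 minus E16.5 for each of the 39 genes (rows), in lenses labelled Klf4CN (left) and in WT lenses (right), on the log2(signal + 16) scale. Points are limma estimates with bars of ± 1 SE, and filled points had an adjusted p under 0.05. In both panels Ctsl, Atg3 and Sqstm1 lie far to the right and Gusb far to the left, whichever of the 3 scalings was used.

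Of the cargo receptors, Sqstm1 was higher at PN56 in lenses labelled Klf4CN (20157 and 20912 units, against 2706, 2570 and 2557 units at E16.5; log2 difference 2.97, limma adjusted p = 3.09e-10). In WT lenses it was also higher (7644 and 7994 units at PN56, against 2202, 2170 and 2271 units at E16.5; 1.81, limma adjusted p = 7.77e-09). Nbr1 was lower by its brightest probe set, with log2 differences of -0.54 in lenses labelled Klf4CN and -0.53 in WT lenses. The dimmer probe set of Nbr1 was higher in both, at 1.14 and 0.82 (adjusted p = 0.000423 and 0.0038 over all probe sets in limma), so the direction of Nbr1 is not settled by these arrays.

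In the Atg8 family, Gabarapl1 had 14653 and 16039 units in PN56 lenses labelled Klf4CN, against 5349, 4934 and 5359 units at E16.5 (log2 difference 1.55, limma adjusted p = 7.97e-08). In WT lenses it had 13706 and 12927 units at PN56, against 5662, 5251 and 4854 units at E16.5 (1.34, limma adjusted p = 2.21e-07). The groups stood far apart in both genotypes, and both probe sets of the gene gave this direction. Gabarap was higher too, by 0.72 in lenses labelled Klf4CN and 0.53 in WT lenses. Map1lc3b was higher by its brightest probe set, at 1.49 in lenses labelled Klf4CN and 0.60 in WT lenses. Its next brightest probe set was lower in lenses labelled Klf4CN (-0.73, adjusted p = 0.000799 over all probe sets in limma) and had -0.27 in WT lenses, and the third tested had -0.15 and -0.02, so the direction of Map1lc3b with age is not settled by these arrays. After quantile normalization Gabarap had 0.33 in lenses labelled Klf4CN and 0.31 in WT lenses. Gabarapl2 was higher at PN56 in lenses labelled Klf4CN (0.60, limma adjusted p = 0.0032) and had a log2 difference of -0.12 in WT lenses (limma adjusted p = 0.497). The dimmer probe set of Map1lc3a was lower at PN56 in both genotypes. It gave -0.56 in lenses labelled Klf4CN and -1.53 in WT lenses (adjusted p = 0.0076 and 3.8e-06 over all probe sets in limma). By its brightest probe set, Map1lc3a had 0.11 in lenses labelled Klf4CN (limma adjusted p = 0.452) and was lower in WT lenses (-0.37, limma adjusted p = 0.0149). The WT call of Map1lc3a was lost without PN56 WT replicate 2 (limma adjusted p = 0.0809) and without E16.5 WT replicate 1 (0.0531 by limma).

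By their brightest probe sets, all 4 genes that start the membrane had log2 differences below 0 in both genotypes. Wipi1 was lower in both, with -0.66 in lenses labelled Klf4CN (limma adjusted p = 0.0017) and -1.11 in WT lenses (limma adjusted p = 2.78e-05). With its probe sets averaged, Wipi1 no longer passed in lenses labelled Klf4CN (-0.32, limma adjusted p = 0.0799). Becn1 was lower by its brightest probe set, with -0.87 in lenses labelled Klf4CN and -0.83 in WT lenses. Another probe set of Becn1 was higher in lenses labelled Klf4CN (0.25, adjusted p = 0.0495 over all probe sets in limma) and another in WT lenses (1.07, adjusted p = 0.0237 by the same test), and averaging gave -0.10 and 0.31, neither past the test, so its direction is not settled either. Wipi2 was lower in WT lenses (-0.70, limma adjusted p = 0.0035) and had -0.34 in lenses labelled Klf4CN, where it passed without PN56 Klf4CN replicate 1 (-0.65, limma adjusted p = 0.0045). Ulk1 had -0.30 in lenses labelled Klf4CN and -0.45 in WT lenses, and passed in WT lenses without PN56 WT replicate 1 (-0.74, limma adjusted p = 0.03).

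In the conjugation machinery, Atg3, the conjugating enzyme for the Atg8 family, had 18532 and 24475 units in PN56 lenses labelled Klf4CN, against 3935, 3021 and 3099 units at E16.5. Atg3 in WT lenses had 18104 and 20346 units at PN56, against 3511, 3603 and 2780 units at E16.5. The PN56 arrays lay far above the E16.5 arrays, with log2 differences of 2.67 (limma adjusted p = 5.38e-08) in lenses labelled Klf4CN and 2.54 (limma adjusted p = 6.33e-08) in WT lenses, folds of 6.37 and 5.83. Atg16l1 was lower in lenses labelled Klf4CN (-1.25, limma adjusted p = 0.0026) and had -0.18 in WT lenses. Atg12 had 0.04 in lenses labelled Klf4CN and was lower in WT lenses (-0.36, limma adjusted p = 0.0198), a call lost without PN56 WT replicate 2 (limma adjusted p = 0.184) and without E16.5 WT replicate 1 (0.0634 by limma). Those values of Atg12 are from its brightest probe set. The next brightest was higher in both, at 1.48 in lenses labelled Klf4CN and 1.06 in WT lenses (adjusted p = 7.56e-05 and 0.000928 over all probe sets in limma). The dimmest had 0.07 and -0.24, neither past the test. Atg5 had -0.54 in lenses labelled Klf4CN (limma adjusted p = 0.057) and 0.02 in WT lenses, and Atg7 had -0.35 and 0.24. In lenses labelled Klf4CN, Atg5 passed without E16.5 Klf4CN replicate 3 (-0.70, limma adjusted p = 0.0239) and Atg7 passed without PN56 Klf4CN replicate 2 (-0.68, limma adjusted p = 0.0237).

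Of the transcription factors, Tfe3 had 409 and 365 units in PN56 lenses labelled Klf4CN, against 585, 618 and 583 units at E16.5 (log2 difference -0.60, limma adjusted p = 0.0068). Tfe3 in WT lenses had 288 and 294 units at PN56, against 829, 682 and 664 units at E16.5 (-1.26, limma adjusted p = 2.87e-05). It was lower at PN56 in both, without overlap. Tfeb was lower in lenses labelled Klf4CN (-1.16, limma adjusted p = 0.0126) and had 0.37 in WT lenses (limma adjusted p = 0.384). The Tfeb call was lost without PN56 Klf4CN replicate 1 (limma adjusted p = 0.097) and without E16.5 Klf4CN replicate 1 (0.0519 by limma).

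**Figure D4:**
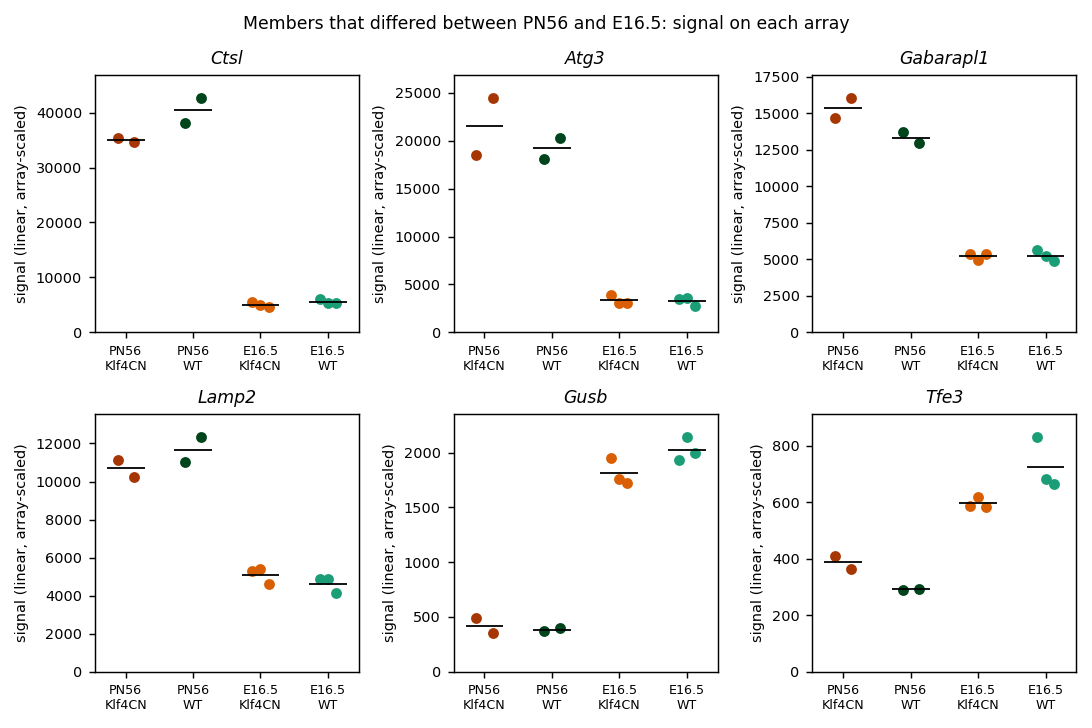
Signal (linear, scaled per array) of 6 genes that differed between PN56 and E16.5 in both genotypes, 1 panel a gene, each axis starting at 0; points are arrays and bars group means. Ctsl, Atg3, Gabarapl1 and Lamp2 are higher on all PN56 arrays than on any E16.5 array, and Gusb and Tfe3 are lower on all of them.

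The lysosomal membrane genes differed from each other in direction. Lamp2, a receptor for direct protein import as well as a structural glycoprotein, had 11143 and 10258 units in PN56 lenses labelled Klf4CN, against 5279, 5411 and 4613 units at E16.5 (log2 difference 1.07, limma adjusted p = 5.67e-06). In WT lenses it had 11009 and 12326 units at PN56, against 4883, 4868 and 4145 units at E16.5 (1.33, limma adjusted p = 7.79e-07). All 4 probe sets of Lamp2 were higher at PN56 in both genotypes. Lamp1 was lower, with log2 differences of -0.37 in lenses labelled Klf4CN and -0.49 in WT lenses, and the Klf4CN call was lost without PN56 Klf4CN replicate 2 (limma adjusted p = 0.0538). Mcoln1 was lower by its brightest probe set (-0.87 and -0.90) and no longer passed in WT lenses with its probe sets averaged (-0.19, limma adjusted p = 0.452). Scarb2 was higher (0.80 and 0.64). Npc1 had 0.37 in lenses labelled Klf4CN and was higher in WT lenses (0.99, limma adjusted p = 0.0083), a call lost without PN56 WT replicate 2 (limma adjusted p = 0.0823).

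Of the proton pump subunits, Atp6v1a had log2 differences of -0.42 in lenses labelled Klf4CN and -0.67 in WT lenses, and Atp6v1h -0.52 and -0.81, all past the test. Another probe set of Atp6v1a was higher in both (0.56 and 1.003, adjusted p = 0.0271 and 0.000768 over all probe sets in limma). The call of Atp6v1a in lenses labelled Klf4CN was lost without PN56 Klf4CN replicate 2 (limma adjusted p = 0.133). Atp6v0d1 had 0.07 and -0.08, neither past the test.

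Ctsl (probe set 1451310_a_at; gene at chr13:64361890-64370772) encodes a lysosomal cysteine protease. It had 35332 and 34575 units in PN56 lenses labelled Klf4CN, against 5568, 5028 and 4541 units at E16.5. Ctsl in WT lenses had 38109 and 42663 units at PN56, against 5996, 5313 and 5408 units at E16.5. Every PN56 array lay above every E16.5 array, with log2 differences of 2.79 (limma adjusted p = 1.73e-09) in lenses labelled Klf4CN and 2.85 (limma adjusted p = 1.34e-09) in WT lenses, folds of 6.93 and 7.23.

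The other cathepsins were mixed. Ctsh, an aminopeptidase, was higher in both genotypes (log2 differences of 1.01 in lenses labelled Klf4CN and 1.19 in WT lenses), as were both of its probe sets. Ctsa was lower in both (-0.78 and -0.65), and so was Ctss (-0.67 and -0.90). By their brightest probe sets, Ctsb (0.39) and Ctsf (0.76) were higher and Ctsd (-0.31) lower at PN56 in lenses labelled Klf4CN. In WT lenses they had -0.10, 0.35 and -0.18, none of these 3 past the test. The next brightest probe set of Ctsb was higher in both genotypes (1.22 and 0.75, adjusted p = 1.32e-05 and 0.000599 over all probe sets in limma). Its dimmer ones gave 0.16 and -0.36 in lenses labelled Klf4CN and 0.09 and -0.36 in WT lenses, none past the test. Ctsz was higher in WT lenses (0.72, limma adjusted p = 0.0026) and had 0.17 in lenses labelled Klf4CN. Its other probe sets gave -0.38 (adjusted p = 0.0139 over all probe sets in limma) and 0.28 (not past the test) in lenses labelled Klf4CN. In WT lenses they gave 0.06 (not past the test) and 0.77 (adjusted p = 0.000293 by the same test). Ctsk passed in neither (-0.02 and -0.74).

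Several of these calls in lenses labelled Klf4CN were lost when 1 array was left out. Ctss was lost without PN56 Klf4CN replicate 2 (limma adjusted p = 0.339), without E16.5 Klf4CN replicate 1 (0.0793 by limma) or replicate 3 (0.0533 by limma), and had -1.04 without PN56 Klf4CN replicate 1. Ctsf was lost without PN56 Klf4CN replicate 1 (limma adjusted p = 0.266), without E16.5 Klf4CN replicate 2 (0.0754 by limma) or replicate 3 (0.0863 by limma). Ctsd was lost without PN56 Klf4CN replicate 2 (limma adjusted p = 0.22) or E16.5 Klf4CN replicate 1 (0.0688 by limma), and Ctsh without PN56 Klf4CN replicate 1 (0.0568 by limma).

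Among the other lumenal proteins, Gusb, the enzyme that removes glucuronic acid, had 489 and 354 units in PN56 lenses labelled Klf4CN, against 1953, 1757 and 1726 units at E16.5. In WT lenses it had 371 and 400 units at PN56, against 1935, 2142 and 1996 units at E16.5. It was lower at PN56, with log2 differences of -2.08 in lenses labelled Klf4CN and -2.35 in WT lenses (limma adjusted p = 2.46e-07 and 7.15e-08), 4.22-fold and 5.08-fold lower. Gaa, acid alpha-glucosidase, was lower by its brightest probe set (-0.75 and -0.54), and the WT call was lost without PN56 WT replicate 2 (limma adjusted p = 0.0636). Hexa, a subunit of beta-hexosaminidase, and Npc2 were higher in lenses labelled Klf4CN (0.37 and 0.50) and had 0.15 and 0.13 in WT lenses. The next brightest probe set of Npc2 was higher in both genotypes (0.99 and 0.35, adjusted p = 1.41e-06 and 0.0042 over all probe sets in limma). A dimmer one gave 1.07 in lenses labelled Klf4CN (adjusted p = 0.004 by the same test) and -0.22 in WT lenses, which did not pass. The Hexa call was lost without PN56 Klf4CN replicate 1 (limma adjusted p = 0.195) and without E16.5 Klf4CN replicate 1 (0.0508 by limma).

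Markers of other cells also differed with age. Of all genes tested, 21.6% were higher and 30.5% lower at PN56 in lenses labelled Klf4CN, and 25.0% and 30.7% in WT lenses. The summed signal of 17 macrophage markers ran from 2833 to 4836 units at PN56 and from 11513 to 14277 units at E16.5 in lenses labelled Klf4CN, and from 2956 to 3285 units at PN56 and from 9024 to 12020 units at E16.5 in WT lenses. At PN56 12 of 16 tested were lower and 1 higher in lenses labelled Klf4CN, and 13 were lower and 0 higher in WT lenses, with none at 0. Blood and vessel markers were lower at PN56 in 5 of 5 tested in both genotypes, with a median log2 difference of -3.03 in lenses labelled Klf4CN and -3.14 in WT lenses. Of 11 retina markers tested, 6 were higher and 2 lower in lenses labelled Klf4CN, and 6 higher and 0 lower in WT lenses. The retina sum ran from 8927 to 15363 units at PN56 and from 2413 to 6088 units at E16.5 in lenses labelled Klf4CN, and from 8081 to 8135 units at PN56 and from 413 to 2452 units at E16.5 in WT lenses. Of 6 pigment cell markers tested, 1 was higher and 1 lower in lenses labelled Klf4CN, and 4 higher and 0 lower in WT lenses. The difference between the effects of the label at the 2 ages passed for 2 of these 6, both below 0. Of 8 mesenchyme markers tested, 1 was higher and 2 lower in lenses labelled Klf4CN, and 2 higher and 2 lower in WT lenses. Of 14 lens markers, 10 were higher and 2 lower in lenses labelled Klf4CN, and 11 higher and 1 lower in WT lenses. Beside them Ctss was lower and Ctsh higher at PN56 in both genotypes, and the part of these cells in the results was not tested.

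Probe sets of the same gene disagreed in many of the age calls. In WT lenses 18 of the 26 genes that passed had another probe set past the filter. In 9 of the 18 at least 1 of these had the opposite sign, and in 6 of them it passed the test in that direction. In lenses labelled Klf4CN the counts were 17, 9 and 5, and the 5 were Nbr1, Map1lc3b, Becn1, Atp6v1a and Gaa (0.45 by the dimmer probe set, against -0.75 by the brightest). The 6 in WT lenses were Nbr1 (0.82 by the dimmer probe set, against -0.53 by the brightest), Becn1 (1.07, against -0.83), Atg12 (1.06, against -0.36), Atp6v1a (1.003, against -0.67), Gaa (0.64, against -0.54) and Mcoln1 (1.20, against -0.90). A probe set reads 1 stretch of a transcript, and which transcript form each one reads was not tested. At PN56, 4 of the 6 genes that differed with the Klf4 label had another probe set past the filter, and Map1lc3b was the 1 with an opposite sign.

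**Figure D5:**
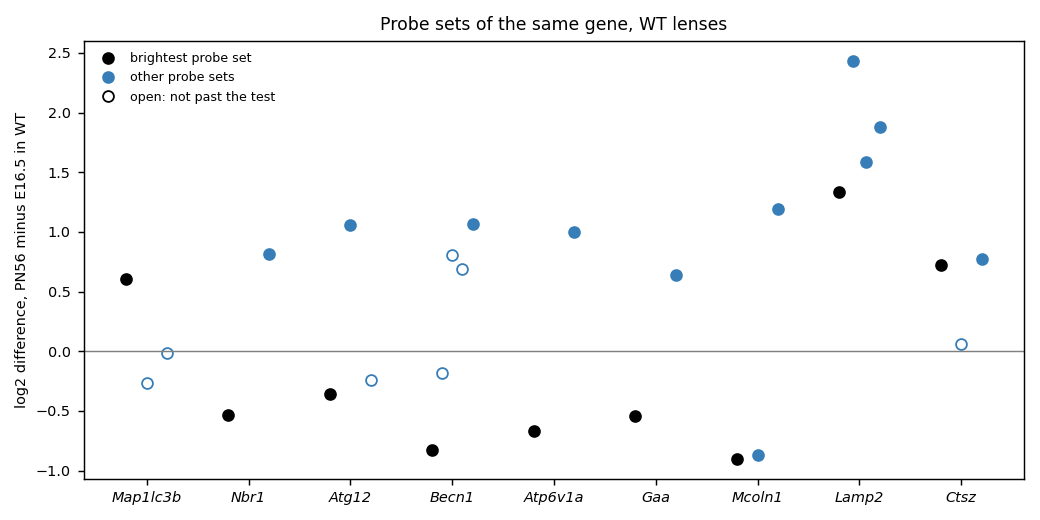
Log2 difference of PN56 minus E16.5 in WT lenses for every probe set past the filter of 9 genes, on the log2(signal + 16) scale. Black points are the brightest probe set, blue points the others, and filled points had an adjusted p under 0.05 over all probe sets. For Nbr1, Atg12, Becn1, Atp6v1a, Gaa and Mcoln1 a filled blue point lies above 0 and the black point below it, and all 4 points of Lamp2 lie above 0.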

How the data were processed

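The deposited values were linear intensities, 1 per probe set and array, made with GCOS 1.4 per the submitters' processing notes, with no other step named there. Each array had a mean of 500 after trimming 2% at each end, so the authors had scaled the arrays to a common level, and a change in total RNA cannot be seen. Of 45101 probe sets, 34945 named 1 gene and 64 were controls. Values were tested as log2(signal + 16). The brightest probe set stood for a gene, and genes at or above the 40th percentile of probe sets (a signal of about 45.0) were tested. All 10 arrays entered 1 limma fit (3.58.1, R 4.3.3) with 4 group means and an intensity trend. Tests were two-sided with Benjamini-Hochberg adjustment over all 13450 genes; probe sets named as others were adjusted over all probe sets past the filter, an alternative chosen after seeing the data.

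The members and lists were chosen with earlier results of these data known. Named were all members, Klf4 and defining markers. From each of 4 wider lists, genes were named out of the up to 3 of smallest p in each direction. Not all of these were named with age, and none for the difference between ages. The fit was tested on simulated data. Alternatives were other normalizations, offsets of 1 and 64, other filters, averaging each gene's probe sets, no trend, compared groups alone, a replicate block and leaving out each array; where 1 array of a group remained, it was assumed to vary like the others. Promoter letters were read from RefSeq windows.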

Additional observations from a re-analysis of the deposited data

Results flagged for a closer look

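The effect of the Klf4 label differed between ages, by limma's test of the difference itself, for Sqstm1 and Map1lc3b. For Sqstm1 the log2 difference of lenses labelled Klf4CN from WT lenses was 1.39 at PN56 and 0.24 at E16.5, a difference of effects of 1.16 (limma adjusted p = 0.000486). For Map1lc3b it was 0.89 at PN56 and 0.00 at E16.5, a difference of effects of 0.89 (limma adjusted p = 0.004), and the other 2 probe sets past the filter gave differences of effects of -0.46 and -0.14, neither past the test. No group held 4 or more arrays, so no array was tested as an outlier within its group.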

How the results depend on the processing

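Each result was recomputed under 21 alternatives (20 for the difference between ages). Among results that had passed, 1251 kept their direction and their side of the threshold, 60 kept only the direction and 10 reversed. Of those that had not passed, 2700 still did not pass, whatever their direction. Another 29 passed in the same direction and 1 passed with its direction reversed. With the probe sets of each gene averaged, so that dim probe sets weighed as much as bright ones, 19 genes passed with age in lenses labelled Klf4CN (12 higher, 7 lower), 16 in WT lenses (10 higher, 6 lower) and 0 for the difference between ages. The averages took in probe sets that failed the filter, and for Sqstm1, Ctsl and Atp6v1h every other probe set was of that kind. The 11 reversals were all under that setting. In lenses labelled Klf4CN, Nbr1 (0.30), Atp6v1a (0.0676) and Atp6v1h (0.16) reversed with age. In WT lenses Nbr1 (0.14), Map1lc3b (-0.0038), Becn1 (0.31), Atg12 (0.15), Atp6v1a (0.17), Atp6v1h (0.36) and Gaa (0.048) did. For Klf4CN against WT at PN56 Ctsl reversed and passed (0.79, limma adjusted p = 0.0284), Ctsz passed as lower (-0.44, 0.0411 by limma), and 2 genes were higher and 2 lower in place of 5 and 1. Sqstm1 (limma adjusted p = 0.095), Map1lc3b (0.201) and Ctsb (0.684) no longer passed at PN56 under that setting, and kept their calls under the other 20. Under every alternative 11 of the 29 calls with age in lenses labelled Klf4CN were kept, 11 of the 26 in WT lenses, and 0 of the 6 with the Klf4 label at PN56. Leaving out 1 array gave 4 to 8 calls at PN56, 0 at E16.5, 25 to 29 with age in lenses labelled Klf4CN, 22 to 27 in WT lenses and 2 to 3 for the difference between ages.

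With the replicate number as a block, 6 genes passed at PN56, 0 at E16.5 and 3 for the difference between ages. With age, 30 passed in lenses labelled Klf4CN and 26 in WT lenses. For the counts with a block, with averaged probe sets or with an array left out, the share of all genes is not given here. Those counts therefore cannot be read against it. Deviations of same-numbered arrays from their group means correlated at 0.04 for both replicates at PN56, and at 0.27, 0.24 and 0.05 at E16.5. With 2 arrays in each PN56 group, the values of both replicates are equal by construction. Whether same-numbered arrays were prepared together cannot be told from these values. With 2 arrays a group at PN56, the spread rests on all 4 groups, and signals near background, such as those of Tfeb and Ctsk, limit the fold that can be read.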

Other observations

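Other genes of the same pathways were read from 4 lists. Changes named here passed limma's test over all genes. At PN56, where 13.0% of all genes passed, of 38 further autophagy genes tested, 0 were higher and 3 lower in lenses labelled Klf4CN than in WT lenses: Stx17, which fuses the autophagosome with the lysosome (log2 difference -0.83), Pink1, a kinase that marks damaged mitochondria (-0.63), and Atg4c, a protease that processes Atg8 proteins (-0.81). Of 41 further lysosomal genes, the sorting receptor Igf2r was higher (0.89), and the fucosidase Fuca1 (-0.83) and the protease Lgmn (-0.53) were lower. Of 13 further genes of the proton pump and its accessory proteins, Atp6ap2 (0.58) and Atp6v1f (0.70) were higher, and Atp6v1b2 (-0.55) and Atp6v1g1 (-0.36) lower. Of 19 genes of nutrient sensing and of the Tfeb family, 4 were higher and 3 lower. Eif4ebp1, a translation repressor under mTOR control, was among the higher (1.24), as were the mTOR activator Rheb (0.56) and Lamtor2 (0.88). Mtor (-0.71), its partner Mlst8 (-0.96) and Rragc (-0.78) were lower. At E16.5, 0 genes of the 4 lists passed in limma, where 1 of all 13450 genes did and 606 had an unadjusted p under 0.05.

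With age, Vamp8, which takes part in the same fusion step as Stx17, was higher at PN56 in lenses labelled Klf4CN (3.10) and in WT lenses (2.78), as were Pink1 (1.80 and 2.23), Fundc1, a mitophagy receptor (1.48 and 1.86), and Fuca1 (1.90 and 2.65). Tsc2, an inhibitor of mTOR signalling (-2.49 and -2.59), Rraga (-2.10 and -1.94), the galactosidase Glb1 (-1.48 and -1.90) and Igf2r (-2.10 and -2.19) were lower in both. With age, the autophagy list had 26 of 38 genes past the test in lenses labelled Klf4CN (15 higher, 11 lower), against 52.1% of all genes. In WT lenses it had 21 (10 higher, 11 lower), against 55.6% of all genes. Lower in both genotypes from this list were Ambra1 (-1.17 and -1.11), Atg9a (-1.13 and -0.90) and Atg4c (-1.77 and -1.15). The lysosomal list had 22 (13 higher, 9 lower) and 18 (13 higher, 5 lower) of 41. The proton pump list had 12 (8 higher, 4 lower) and 10 (6 higher, 4 lower) of 13. The nutrient sensing list had 16 (8 higher, 8 lower) and 11 (3 higher, 8 lower) of 19.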
